A study of Mus musculus with 41 samples.

Results

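The transcripts of Caprin1 and of 8 genes for its paralogue and its stress granule partners were followed in mouse R1 cells, a line of embryonic stem cells (ESCs). The genes were chosen by name: Caprin1, Caprin2, G3bp1, G3bp2, Usp10, Ubap2, Ubap2l, Nufip2 and Ddx3x. All 9 have a row in each of the 4 count tables, which hold 51410 genes, and all 9 passed the filter on low counts in every comparison. The question put to them was whether cells labelled as Caprin1 knockout hold other levels of its partners' RNA, and how these levels moved once transcription was blocked.

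Stress granules are cytoplasmic condensates of untranslated mRNA and protein that form when translation initiation stalls, most often after phosphorylation of the initiation factor eIF2α. G3BP1 and its paralogue G3BP2 are the scaffold, and CAPRIN1, an RNA-binding protein, binds them and favours condensation, while the ubiquitin hydrolase USP10 competes for the same surface and opposes it. UBAP2L and UBAP2, NUFIP2 and the RNA helicase DDX3X are further RNA-binding proteins of the granule.

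LIF, the cytokine that keeps ESCs undifferentiated, was left out of the medium for 4 days, and 1 µM retinoic acid, a signal for differentiation, was added. They then received 2 µg/ml α-amanitin, which blocks RNA polymerase II, and were taken after 0, 2, 4 and 8 h. The groups are wild type (WT, 4 libraries at each time), Caprin1 knockout clone 2 (2 libraries at each time) and Caprin1 knockout clone 4 (1 library at 0 h and 2 at each later time), so 31 RNA-seq libraries were used. Both knockout groups are single clones, and how the gene was disrupted is not given in the sources used here. The series also has 9 samples of RNA immunoprecipitated with a CAPRIN1 antibody (RIP-seq). They are 1 control and 2 samples each of cells in retinoic acid, in nocodazole (10 µM, 8 h), in arsenate (200 µM, 2 h) and in ESC medium. Of this part only the authors' pair of gene lists was used, named "CNT vs RA" and "2I vs RA". Neither name refers to the nocodazole or arsenate samples. The labels do not say that replicates came from separate cultures, so p-values measure the spread between these libraries, which may be technical.

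Total counts ranged from 3953468 to 31565738 per library at 0 h and from 3460172 to 10566579 at the later times, which sit in separate tables. Time therefore cannot be told apart from the table. At 0 h the WT libraries stood apart as 2 pairs: a chi-square per gene was 3.62 between replicates 1 and 2 and 2.86 between replicates 3 and 4, but 18.7 to 41.4 across the pairs. At 8 h the same pairs gave 1.93 and 2.34 within and 6.88 to 10.8 across, and at 4 h WT replicate 1 stood at 6.56 to 14.9 from the others, which stood at 1.73 to 3.62 from each other. Member results that use the 0 h WT libraries are given with a pair alone where that changes the call. A pair alone leaves the spread between the pairs out of the error. For clone 2 at 0 h it called 10141 genes (replicates 1 and 2) and 10347 (replicates 3 and 4), against 7740 with all WT libraries (edgeR, FDR under 0.05). Calls with a pair alone therefore do not compare with the shares of all genes given below. ESC markers, among them Pou5f1, Nanog and Sox2, were present in all libraries. Their sums over 12 genes were 832 to 1114 CPM in WT, 1632 to 2023 in clone 2 and 1014 to 1398 in clone 4 (CPM is the counts-per-million scale after TMM scaling). Not all markers followed the sum. The median of Nanog was 51.4 CPM in WT and 48.5 in clone 2, and that of Sox2 65.6 and 53.8. Medians of Esrrb, Utf1 and Dppa4 were also lower in clone 2. Klf4, Sall4 and Dppa5a had medians of 117, 216 and 150 CPM in WT and 298, 569 and 349.9 in clone 2. At 0 h 8 of the 12 were called higher and 3 lower in clone 2, where 45.2% of all genes tested were called. Primitive and parietal endoderm markers, 9 of 9 detected, summed to 8215 to 10061 CPM in WT, 33695 to 39840.1 in clone 2 and 12045 to 15947 in clone 4. Fibroblast markers, 10 of 10 detected with Lum at 0 in some WT libraries, summed to 898 to 1529 CPM in WT, 568 to 821 in clone 2 and 2242 to 2769 in clone 4. The low sum in clone 2 is that of Col1a1, Col3a1 and Fbn1, while at 0 h 5 of the 10 were called higher and 3 lower in clone 2 (median 0.46, beside the same 45.2% of all genes called). The part of these other cell types in any difference between the groups was not tested, and in bulk samples fewer cells of a type and less RNA per cell cannot be told apart.

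Caprin1, the targeted gene (ENSMUSG00000027184.14, at 103762945 to 103797669 of chromosome 2 in GRCm38), separated the clones from each other rather than knockout from WT. At 0 h its level was 859.9, 765, 953 and 977 CPM in WT replicates 1 to 4, 107 and 106 CPM in clone 2, and 1075 CPM in the library labelled clone 4. Clone 2 lay far below WT at each time and the libraries labelled clone 4 lay at or near it. Over all times, WT libraries ranged from 765 to 1159 CPM (median 965, n = 16), clone 2 from 106 to 196 (median 127, n = 8) and those labelled clone 4 from 989 to 1223 (median 1049, n = 7).

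**Figure D1:**
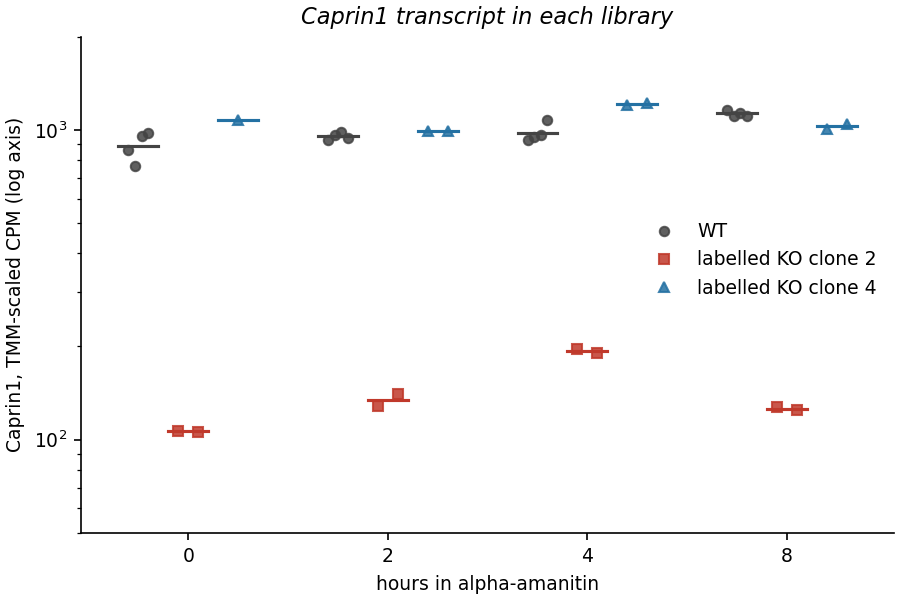
Caprin1 level in each of the 31 libraries (y axis, TMM-scaled CPM, log axis) by hours in α-amanitin (x axis); points are libraries and bars are group means. Clone 2 lies between 106 and 196 CPM, and the libraries labelled clone 4 lie between 989 and 1223 CPM. At 0, 2 and 4 h the libraries labelled clone 4 lie above the WT libraries of the same time, and at 8 h below them.

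As a share of the WT mean of the same time, Caprin1 in clone 2 was at 11.9%, 14%, 19.7% and 11.1% at 0, 2, 4 and 8 h. The log2 difference from WT was -3.06 at 0 h (SE 0.129, FDR 5.26e-08) and -2.82, -2.37 and -3.16 at 2, 4 and 8 h (edgeR quasi-likelihood test, FDR at most 1.83e-21 at the later times). In the libraries labelled clone 4 the share was 121%, 104%, 124% and 90.9%. There the gene was higher than in WT at 4 h (log2 difference 0.30, SE 0.0622, FDR 0.000229) and lower at 8 h (-0.11, SE 0.0427, FDR 0.0408). The 8 h call was lost without WT replicate 1 (-0.10), WT replicate 3 (-0.11) or clone 4 replicate 1 (-0.08), and without the filter on low counts (-0.13). At 0 and 2 h the values were 0.28 and 0.05 (FDR 0.453 at 2 h), neither called. The 0 h value rests on 1 clone 4 library. With a WT pair alone it was called at 0.42 (replicates 1 and 2) and 0.16 (replicates 3 and 4), settings that called more of all genes too. Between the clones, Caprin1 was higher in libraries labelled clone 4 by 3.34, 2.87, 2.67 and 3.05 on the log2 scale at the 4 times. Counts are per gene, so they do not show whether the remaining transcript of either clone encodes a protein.

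With both clones pooled, as the genotype label has them, Caprin1 was not called at any time (log2 -1.05, -0.77, -0.49 and -0.95). Without the 1 clone 4 library at 0 h, which leaves clone 2 alone, the 0 h value was -3.06 (FDR 1.17e-07). Of the 9 genes, 0 were called in this pooled comparison at 0 h (edgeR; 1 at an unadjusted p under 0.05, and 0 by DESeq2) against 26.1% of all genes tested. At 2 h 2 were called (31.5%), at 4 h 4 (36.3%), and at 8 h 0 (1 at an unadjusted p under 0.05, 0 by DESeq2; 17.3%). The clones were therefore set against WT separately. The pooled calls were Usp10 (-0.20) and Ubap2 (-0.26) at 2 h, and G3bp2 (0.24), Ubap2l (0.31), Nufip2 (0.41) and Ddx3x (0.41) at 4 h. Usp10 was lost in 6 of 8 omissions of a single library and without the filter on low counts (-0.19). G3bp2 was also lost in 6 of 8 omissions, on library totals (0.10) and without the filter (0.24). At 0 h Ddx3x was called with WT replicates 1 and 2 alone (0.67, edgeR FDR 0.0437).

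The genes beside Caprin1 on chromosome 2 were measured for comparison. Nat10, an RNA acetyltransferase gene that overlaps Caprin1 by 10 bases, was higher in clone 2 at each time. Its log2 difference was 0.26 (FDR 0.0453), 0.20 (FDR 0.0123), 0.33 (FDR 0.000104) and 0.29 (FDR 2.58e-05) at 0, 2, 4 and 8 h. In libraries labelled clone 4 it was not called. Cat, which encodes catalase, was higher in clone 2 at each time (log2 difference 1.46, 1.31, 1.31 and 1.37), with 293 to 325 CPM against 103 to 134 in WT and 115 to 149 in libraries labelled clone 4. In the latter Cat was called higher at 4 h (0.28, FDR 0.00106) and not at the other times. Abtb2 was lower in clone 2 at each time (-1.09, -0.82, -1.73 and -0.82) and in libraries labelled clone 4 at 0, 2 and 4 h (-0.58, -0.47 and -1.09). Cd59a was called at each time, lower in clone 2 (-0.64, -0.93, -0.68 and -0.81) and higher in libraries labelled clone 4 (1.06, 1.15, 1.33 and 0.84). Fbxo3 was lower in clone 2 at 8 h (-0.23, FDR 0.00263) and not called otherwise. D430041D05Rik, at a mean of 1.13 CPM, was lower in clone 2 at 2 and 4 h (-1.87 and -1.29) and in libraries labelled clone 4 at 4 h (-1.17), with -0.76 and -0.58 at 0 h (neither called), and did not pass the filter at 8 h.

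Among 10696 genes with a mean of at least 5 CPM, those whose 12 group means followed Caprin1 most closely were Hs6st2 (Pearson r 0.996), Tpm1 (0.991), Cd248 (0.99), Prkg1 and Ddx3y (0.989 each). Like Caprin1 they were low in clone 2 and near WT in libraries labelled clone 4, and the 12 means share libraries, so r is a description. Among the partners, r with Caprin1 ran from -0.847 for G3bp1 and -0.804 for Caprin2 to 0.508 for Ubap2. None of the 8 was among the 100 genes with the highest r.

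Partner levels differed from WT by far less than Caprin1 did in clone 2. Across the 8 partners, both clones and all times, the log2 difference from WT lay between -0.30 and 0.61. Clone 2 and clone 4 were set against the same WT libraries, so their differences share that control. In clone 2, 2 of the 9 genes were called at 0 h (45.2% of all genes tested), 5 at 2 h (61.8%), 6 at 4 h (61.9%) and 6 at 8 h (63.6%), so the share of these genes called was below or near the background. Caprin1 itself is among the genes called at each time, both here and between the clones. In libraries labelled clone 4, 1 was called at 0 h (15.9%), 6 at 2 h (41.3%), 6 at 4 h (47.1%) and 3 at 8 h (37.5%), shares of the 9 above the background at 2 and 4 h (66.7% at each) and below it at 0 and 8 h (11.1% and 33.3%). Between the clones 2 of the 9 were called at 0 h (23.9%), 3 at 2 h (48.7%), 3 at 4 h (47.6%) and, at the last time, 6 (58.4%). The median over the 9 was 0.17, 0.09, 0.19 and -0.03 in clone 2 and 0.21, -0.04, 0.24 and 0.03 in libraries labelled clone 4, against -0.02 to 0.01 over all genes. When libraries were scaled to their totals alone, the median of all genes itself moved, to -0.16, -0.11, -0.19 and -0.15 in clone 2 and to -0.13 to -0.05 in libraries labelled clone 4, so calls that this scaling ends are named with the gene.

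**Figure D2:**
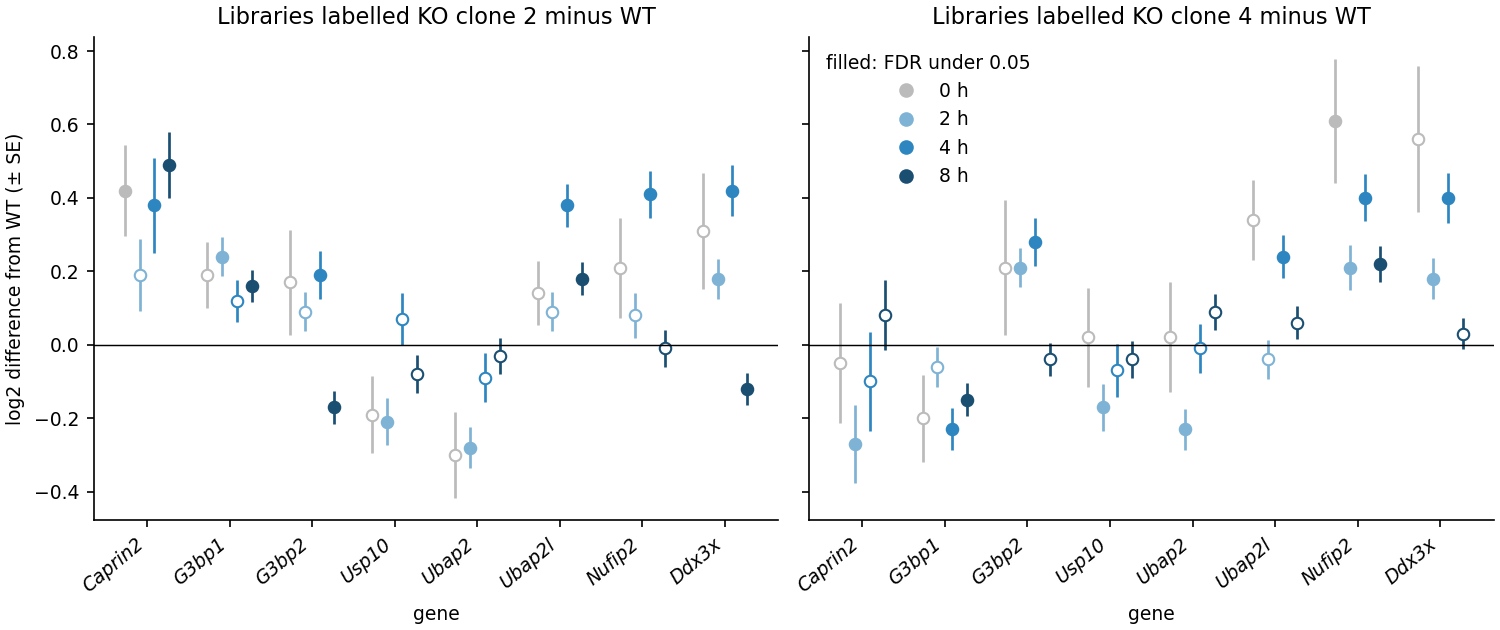
Log2 difference from WT (y axis, ± SE) of the 8 partner genes (x axis) at 0, 2, 4 and 8 h, for the libraries labelled clone 2 (left) and clone 4 (right); filled points passed FDR 0.05. The 64 values lie between -0.30 and 0.61, with Nufip2 and Ddx3x at the upper end in clone 4 and Ubap2 at the lower end in clone 2.

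G3bp1 (ENSMUSG00000018583.5, chromosome 11, 55469657 to 55500888), the main scaffold gene of the granule, was higher in clone 2 and lower in clone 4. At 0 h it was at 399.6, 440.3, 425 and 426 CPM in WT, 480.2 and 480 in clone 2 and 366 in the library labelled clone 4. The 3 groups did not overlap at 0 h, nor at 4 and 8 h. Clone 2 passed the test at 2 h (log2 difference 0.24, SE 0.0534, FDR 0.000128) and 8 h (0.16, FDR 0.00205), with 0.19 at 0 h (FDR 0.109) and 0.12 at 4 h (FDR 0.0585). Clone 4 passed it at 4 h (-0.23, FDR 0.00173) and 8 h (-0.15, FDR 0.00569), with -0.20 at 0 h (FDR 0.258) and -0.06 at 2 h (FDR 0.433). The clones differed from each other at each time, by -0.39 (FDR 0.0484), -0.29, -0.35 and -0.31 (clone 4 minus clone 2). The 0 h difference was lost without WT replicate 3 or 4 or either clone 2 library (-0.39 to -0.40), without the filter on low counts (-0.41) and on library totals (-0.34). On library totals the clone 2 calls against WT also ended (0.11 at 2 h and 0.00 at 8 h), and the clone 4 call at 8 h was lost without clone 4 replicate 2 (-0.13). With either WT pair alone at 0 h, G3bp1 was called higher in clone 2 (0.20, FDR 0.0162, and 0.18, FDR 0.000801), and with replicates 3 and 4 alone lower in clone 4 (-0.21, FDR 0.00316).

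G3bp2 (ENSMUSG00000029405.16, chromosome 5, 92052145 to 92137725), the paralogue of G3bp1, did not show the opposite shifts of G3bp1. At 0 h it was at 366, 355, 478 and 501 CPM in WT, 461 and 492 in clone 2 and 492 in the library labelled clone 4. WT replicates 1 and 2 were low and the other libraries overlapped. It was higher in libraries labelled clone 4 at 2 h (0.21, SE 0.0529, FDR 0.000997) and 4 h (0.28, FDR 0.000903). In clone 2 it was higher at 4 h (0.19, FDR 0.0142) and lower at 8 h (-0.17, FDR 0.00127). At 0 h the difference in clone 2 was 0.17 (FDR 0.364), and it was 0.41 (FDR 2.77e-05) against WT replicates 1 and 2 and -0.03 (FDR 0.586) against replicates 3 and 4. In the library labelled clone 4 it was 0.21 (FDR 0.447), with 0.46 (FDR 0.000117) and 0.01 (FDR 0.869) against the same pairs. The 4 h call in clone 2 was lost without either clone 2 library (0.22 and 0.17) and on library totals (0.01), and the 8 h call without clone 2 replicate 1 (-0.11).

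Usp10 (ENSMUSG00000031826.20, chromosome 8, 119910360 to 119957560), whose product counters assembly, changed little. It was at 145, 136, 119.7 and 122 CPM in WT at 0 h, 112 and 116 in clone 2 and 132 in the library labelled clone 4. Both clone 2 libraries lay under all WT libraries and clone 4 lay among them. At 2 h it was lower in clone 2 (-0.21, SE 0.0637, FDR 0.00305) and in libraries labelled clone 4 (-0.17, SE 0.0644, FDR 0.028). The clone 4 call was lost by DESeq2 (-0.17, adjusted p = 0.101) and without WT replicate 1 (-0.13), WT replicate 2 (-0.17) or either clone 4 library (-0.22 and -0.12). At 0, 4 and 8 h its difference was -0.19, 0.07 and -0.08 in clone 2 and 0.02, -0.07 and -0.04 in libraries labelled clone 4, with none called. Against WT replicates 1 and 2 alone the 0 h value in clone 2 was called (-0.28, FDR 0.00138), and against replicates 3 and 4 it was not (-0.08, FDR 0.2). On library totals Usp10 was called lower in clone 2 at 0 h (-0.35, FDR 0.0174) and 8 h (-0.23, FDR 0.000106).

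Caprin2 (ENSMUSG00000030309.16, chromosome 6, 148842492 to 148896257), the paralogue of Caprin1, had the lowest counts of the 9 genes and was higher in clone 2. At 0 h it was at 28.4, 23.7, 27.6 and 31.9 CPM in WT, 35.8 and 38 in clone 2 and 26.8 in the library labelled clone 4. Both clone 2 libraries exceeded all WT libraries at 0 h and at 8 h, where WT had 21.9 to 22.7 CPM and clone 2 30.2 and 32. The log2 difference in clone 2 was 0.42 at 0 h (SE 0.123, FDR 0.0173), 0.19 at 2 h (FDR 0.0865), 0.38 at 4 h (SE 0.129, FDR 0.0121) and 0.49 at 8 h (SE 0.0895, FDR 6.1e-06). The 8 h call held without each library in turn (0.46 to 0.53). The 0 h call was lost without either clone 2 library (0.46 and 0.39), and the 4 h call without WT replicate 3 (0.28) or clone 2 replicate 2 (0.15) and by DESeq2 (0.38, adjusted p = 0.0592), and both on library totals (0.26 and 0.19).

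In libraries labelled clone 4, which hold Caprin1 near the WT level, Caprin2 was at -0.05, -0.10 and 0.08 from WT at 0, 4 and 8 h, none called. At 2 h it was lower (-0.27, FDR 0.0389), a call lost without WT replicate 1, 2 or 4 or either clone 4 library (-0.28 to -0.26), without the filter on low counts (-0.26) and by DESeq2 (-0.27, adjusted p = 0.176). Between the clones Caprin2 was lower in clone 4 at 2, 4 and 8 h (-0.46, FDR 0.00103; -0.47, FDR 0.00928; -0.41, FDR 0.000618) and at -0.47 at 0 h (FDR 0.0829). The 4 h difference was lost without clone 4 replicate 2 (-0.41) or clone 2 replicate 2 (-0.25). Endoderm marker sums were also highest in clone 2, and their part in the Caprin2 and G3bp1 differences was not tested.

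**Figure D3:**
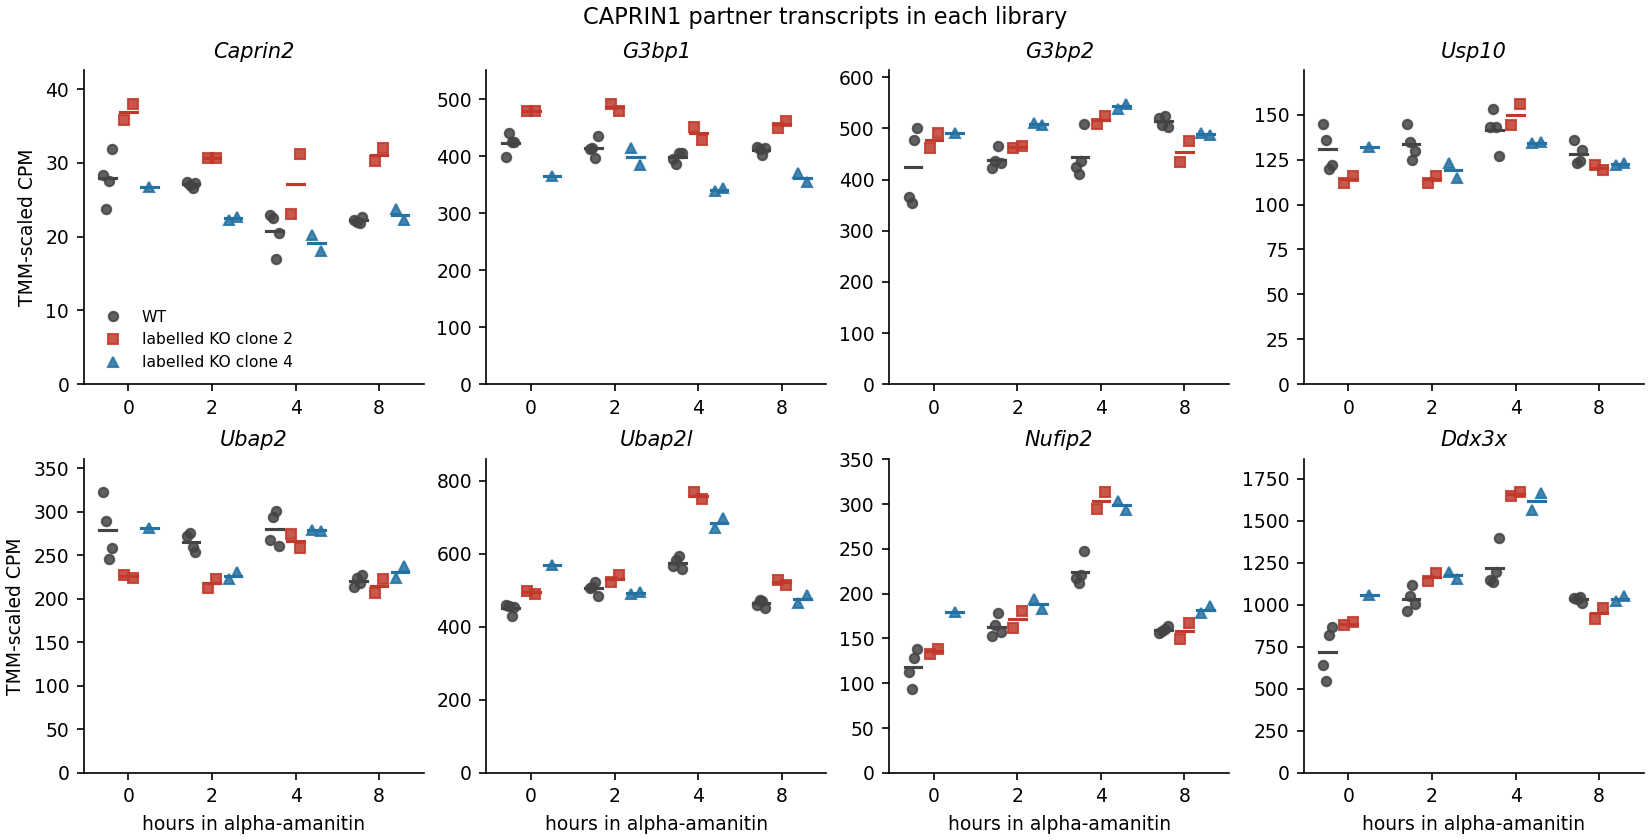
Level of each partner gene in each library (y axes, TMM-scaled CPM from 0) by hours in α-amanitin (x axes); points are libraries and bars are group means. Caprin2 and G3bp1 are higher in clone 2 than in clone 4 at each time, while Ddx3x, Nufip2 and Ubap2l stand highest at 4 h in all 3 groups.

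Ubap2 and Ubap2l encode related ubiquitin-associated proteins of the granule core, and they went different ways. Ubap2 (ENSMUSG00000028433.14, chromosome 4, 41194313 to 41276016) was at 322, 289, 246 and 258 CPM in WT at 0 h, 227 and 224 in clone 2 and 281 in the library labelled clone 4. Clone 2 was under all WT libraries. At 2 h Ubap2 was lower in both clones, with a log2 difference of -0.28 in clone 2 (SE 0.0559, FDR 2.43e-05) and of -0.23 in libraries labelled clone 4 (SE 0.0562, FDR 0.000787). At 0 h the clone 2 value was -0.30 (FDR 0.0617), called against WT replicates 1 and 2 alone (-0.42, FDR 3.78e-05) and replicates 3 and 4 alone (-0.15, FDR 0.00646). The library labelled clone 4 was at 0.02 (FDR 0.94), and at 0.17 (FDR 0.0185) against replicates 3 and 4 alone. At 4 and 8 h the differences were between -0.09 and 0.09 in both clones and were not called. On library totals Ubap2 was called lower in clone 2 at 0, 4 and 8 h (-0.46, -0.28 and -0.18), and at 4 h also without WT replicate 4 (-0.13).

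Ubap2l (ENSMUSG00000042520.16, chromosome 3, 89999589 to 90052609) was at 459, 458, 429.6 and 455 CPM in WT at 0 h, 499 and 490.5 in clone 2 and 568 in the library labelled clone 4. All libraries of both clones were above WT at 0 h, with log2 differences of 0.14 (FDR 0.211) and 0.34 (FDR 0.0605) that were not called; DESeq2 called the latter (0.36, adjusted p = 0.0133). Clone 4 was also called against WT replicates 1 and 2 alone (0.32, FDR 0.00209) or 3 and 4 alone (0.37, FDR 1.36e-06) and without WT replicate 2 (0.35), and clone 2 against replicates 3 and 4 alone (0.17, FDR 0.00205). At 4 h WT had 567, 582, 595 and 558 CPM, clone 2 had 768 and 751, and clone 4 had 671 and 697. The groups did not overlap and Ubap2l was called higher in clone 2 (0.38, SE 0.058, FDR 1.64e-06) and in libraries labelled clone 4 (0.24, SE 0.0582, FDR 0.00101). At 8 h it was higher in clone 2 (0.18, FDR 0.000555; 0.03 and not called on library totals) and at 0.06 in clone 4 (FDR 0.274).

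Nufip2 (ENSMUSG00000037857.16, chromosome 11, 77685764 to 77717966) was the one partner called in libraries labelled clone 4 at every time. At 0 h it was at 113, 93.9, 128 and 138 CPM in WT, 133 and 138 in clone 2 and 179.9 in the library labelled clone 4. Clone 2 overlapped WT and clone 4 lay above all other libraries. The difference from WT in clone 4 was 0.61 at 0 h (SE 0.169, FDR 0.0338), 0.21 at 2 h (FDR 0.0049), 0.40 at 4 h (FDR 8.47e-06) and 0.22 at 8 h (FDR 0.000526). The 0 h call rests on 1 clone 4 library and was lost without WT replicate 1 (0.58) or either clone 2 library (0.61 and 0.63) and on library totals (0.50, FDR 0.0706), and the 2 h call was lost without clone 4 replicate 1 (0.17). In clone 2 Nufip2 was higher at 4 h (0.41, SE 0.0644, FDR 3.02e-06), where its 294 and 313 CPM lay above the 212 to 248 of WT. At 0, 2 and 8 h in clone 2 it was at 0.21, 0.08 and -0.01, none called, with -0.16 called at 8 h on library totals (FDR 0.00809) and 0.44 at 0 h against WT replicates 1 and 2 alone (FDR 0.000119).

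Ddx3x (ENSMUSG00000000787.12, X chromosome, 13280496 to 13293988) encodes a DEAD-box helicase of translation initiation and has a Y-linked paralogue, Ddx3y. At 0 h Ddx3x was at 641, 549, 818 and 866 CPM in WT, 877 and 898 in clone 2 and 1057 in the library labelled clone 4. WT replicates 1 and 2 were lowest, and replicates 3 and 4 lay just under clone 2. The 0 h differences from WT, 0.31 (clone 2, FDR 0.136) and 0.56 (clone 4, FDR 0.0804), were not called. Against WT replicates 1 and 2 alone they were 0.59 and 0.84, and against replicates 3 and 4 alone 0.08 (FDR 0.135) and 0.34 (FDR 9.12e-06).

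At the later times, which do not use those libraries, Ddx3x was higher in clone 2 at 2 h (0.18, FDR 0.0036) and 4 h (0.42, SE 0.0683, FDR 4.01e-06) and in libraries labelled clone 4 at 2 h (0.18, FDR 0.00558) and 4 h (0.40, SE 0.0683, FDR 1.99e-05). The 2 h calls were lost on library totals (0.06 and 0.14), and without clone 2 replicate 2 (0.16) and clone 4 replicate 1 (0.16), in that order of clones. At 4 h WT had 1149, 1134, 1196 and 1394 CPM, clone 2 had 1649 and 1667, and clone 4 had 1563 and 1665. All 4 clone libraries lay above all WT libraries at 4 h. At 8 h it was lower in clone 2 (-0.12, FDR 0.0162), a call lost without WT replicate 2 (-0.11), WT replicate 3 (-0.10) or clone 2 replicate 1 (-0.07) and without the filter on low counts (-0.11).

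Ddx3y was lower in clone 2 at each time (log2 -2.96, -3.37, -3.21 and -3.96). It ranged from 25.1 to 56.5 CPM in WT, 2.6 to 5.85 in clone 2 and 33.1 to 49.4 in libraries labelled clone 4. In the latter it was lower by less, at 2 h (-0.26, FDR 0.0476) and 8 h (-0.28, FDR 0.00467), and not called at 0 and 4 h (0.22 and -0.12).

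Each group was next compared over time with its own 0 h libraries, in a fit over all 31 libraries. CPM is a share of the RNA that remains, so a gene whose RNA decays at the average rate stays level. In WT 3 of the 9 genes were called at 2 h (27.7% of all genes tested), 5 at 4 h (52.2%) and 6 at 8 h (51.1%). In clone 2 the counts were 3 (11.8%), 7 (42.1%) and 1 (28.4%), so 77.8% of the 9 at 4 h. In libraries labelled clone 4 they were 0 at 2 h (edgeR; 2 at an unadjusted p under 0.05, 1 by DESeq2; 6.32%), 4 at 4 h (23.1%) and 2 at 8 h (19.5%). The median change of the 9 at 4 h was 0.12 in WT, 0.40 in clone 2 and 0.14 in libraries labelled clone 4, against -0.04, -0.06 and -0.02 over all genes.

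**Figure D4:**
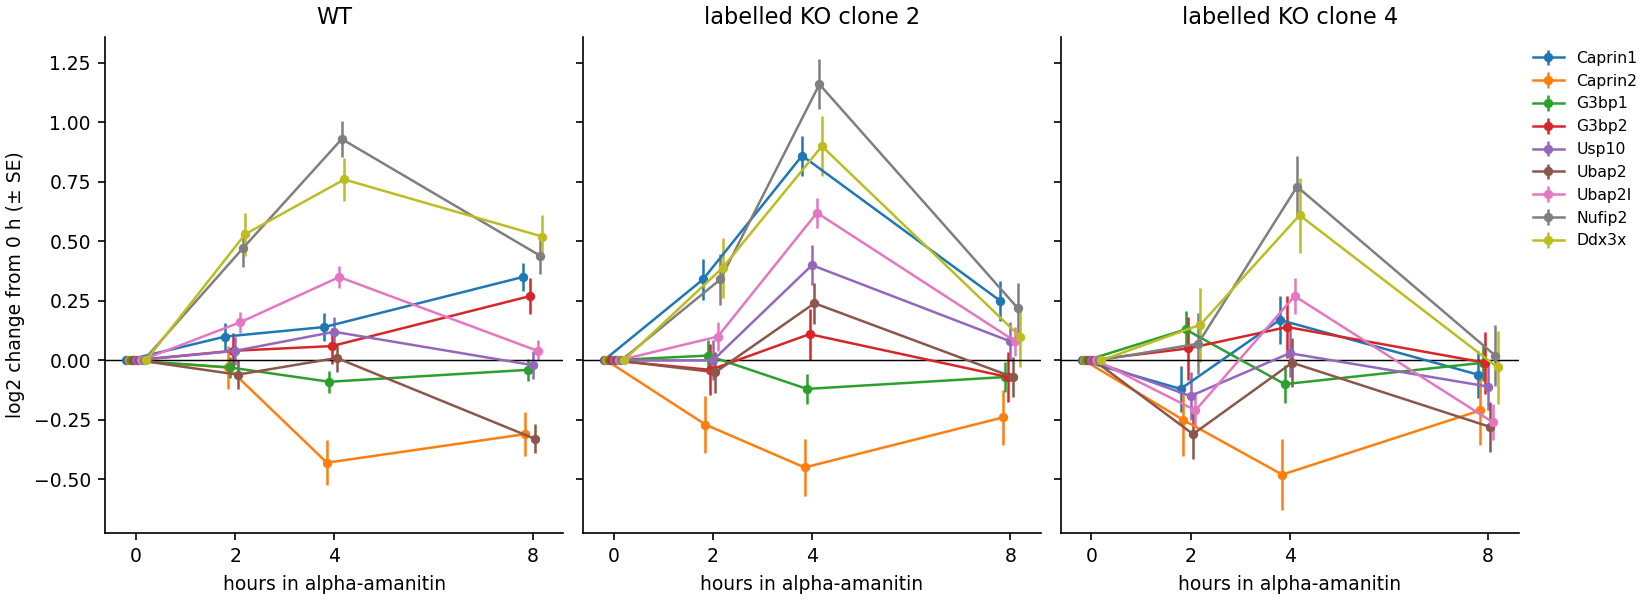
Log2 change from the 0 h libraries of the same group (y axis, ± SE) against hours in α-amanitin (x axis) for the 9 genes in WT, libraries labelled clone 2 and libraries labelled clone 4. Nufip2 and Ddx3x reach the highest values at 4 h in WT (0.93 and 0.76) and clone 4 (0.73 and 0.61), and with Caprin1 in clone 2 (1.16, 0.90 and 0.86).

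Nufip2, Ddx3x and Ubap2l rose at 4 h in all 3 groups and had lower CPM at 8 h than at 4 h. In WT, Nufip2 went from 93.9 to 138 CPM at 0 h to 212 to 248 at 4 h and 156 to 164 at 8 h, with changes of 0.47, 0.93 and 0.44 (FDR at most 1.74e-05). In clone 2 it rose by 0.34 at 2 h and 1.16 at 4 h (FDR 0.0332 and 8.32e-11) and was at 0.22 at 8 h (FDR 0.112), and in libraries labelled clone 4 its values were 0.07, 0.73 and 0.02, of which 4 h was called (FDR 7.04e-05). Ddx3x rose in WT by 0.53, 0.76 and 0.52 (FDR at most 5.01e-05), and at 4 h by 0.90 (clone 2, FDR 1.46e-06) and 0.61 (clone 4, FDR 0.00536). With WT replicates 3 and 4 alone at 0 h the WT rises remained called but were smaller, 0.30, 0.77 and 0.27 for Nufip2 and 0.30, 0.53 and 0.30 for Ddx3x. The clone 2 calls at 2 h, 0.34 for Nufip2 and 0.39 for Ddx3x (FDR 0.0405), were lost on library totals (0.28 and 0.34), without either 0 h library of clone 2 (0.31 and 0.36, 0.38 and 0.41) and without clone 2 replicate 2 at 2 h (0.25 and 0.37), and for Ddx3x also without replicate 1 at 2 h (0.42).

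Ubap2l rose at 4 h by 0.35 (WT, FDR 2.9e-08), 0.62 (clone 2, FDR 3.77e-10) and 0.27 (clone 4, FDR 0.00975). At 8 h it was at 0.04 and 0.08 in WT and clone 2 and lower in clone 4 (-0.26, FDR 0.0141; lost without clone 4 replicate 1 at 8 h, -0.22). The 4 h rise in clone 4 was lost without clone 4 replicate 2 at 4 h (0.24), on library totals (0.18) and without the filter on low counts (0.22), and the WT rise at 2 h (0.16, FDR 0.00471) on library totals (0.06) and without the filter (0.13). WT at 4 h was at 558 to 595 CPM and did not overlap 0 h or 8 h.

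Caprin1 itself rose in WT, to 1159, 1111, 1138 and 1113 CPM at 8 h (0.35, SE 0.0572, FDR 5.39e-06). The 4 WT libraries at 8 h lay above all 4 at 0 h. At 2 h the change was 0.10 (FDR 0.194), called against WT replicates 1 and 2 alone at 0 h (0.24, FDR 0.00037) and without WT replicate 4 at 0 h (0.15). At 4 h the WT change was 0.14 (FDR 0.0369), a call lost without WT replicate 1 (0.13) or 2 (0.07) at 0 h or WT replicate 4 at 4 h (0.09), on library totals (0.05), without the filter on low counts (0.11), and with WT replicates 3 and 4 alone at 0 h (0.02). In clone 2 the residual Caprin1 transcript rose by 0.34, 0.86 and 0.25 at 2, 4 and 8 h (FDR 0.00613, 1.88e-10 and 0.0268), from 106 and 107 CPM to 190 and 196 at 4 h. The 2 h call was lost without clone 2 replicate 2 at 0 h (0.33) or at 2 h (0.27), and the 8 h call without any 1 of its 4 libraries (0.24 to 0.26), on library totals (0.20) and without the filter (0.22). In libraries labelled clone 4 Caprin1 was at -0.12, 0.17 and -0.06, none called.

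Caprin2 fell in WT by 0.43 at 4 h (log2 -0.43, FDR 0.000273) and by 0.31 at 8 h (-0.31, FDR 0.00437), from 23.7 to 31.9 CPM to 17 to 23 and 21.9 to 22.7. With WT replicates 1 and 2 alone at 0 h the 8 h value was -0.16 (FDR 0.161). At 4 h it was also lower in clone 2 (-0.45, FDR 0.00299; lost without clone 2 replicate 1 at 4 h, -0.24) and clone 4 (-0.48, FDR 0.0187; lost without clone 4 replicate 2 at 4 h, -0.41). Ubap2 was lower in WT at 8 h (-0.33, FDR 3.04e-05), with 214 to 227 CPM against 246 to 322 at 0 h. Its WT changes at 2 and 4 h (-0.06 and 0.01) were not called, but were -0.19 at 2 h (FDR 0.00398) against replicates 1 and 2 alone and 0.15 at 4 h (FDR 0.013) against replicates 3 and 4 alone. It was lower in clone 4 at 8 h (-0.28, FDR 0.0487), a call lost in 24 of 30 omissions of a single library (-0.32 to -0.24) and by DESeq2 (-0.27, adjusted p = 0.0638). In clone 2 Ubap2 was higher at 4 h (0.24, FDR 0.0228; lost without either clone 2 library at 0 h, 0.25 and 0.23, without clone 2 replicate 1 at 4 h, 0.20, on library totals, 0.10, and without the filter, 0.22), as was Usp10 (0.40, FDR 0.000195).

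The remaining partners were flat in most groups. G3bp1 was not called over time in any group (-0.12 to 0.13), with WT levels of 386 to 440.3 CPM over all 16 libraries. On library totals G3bp1 was called lower in WT at 2 and 4 h (-0.13 and -0.18) and in clone 2 at 4 h (-0.27), where the median of all genes moved to -0.12, -0.14 and -0.20. G3bp2 was higher in WT at 8 h (0.27, FDR 0.00364), at 502 to 525 CPM against 355 to 501 at 0 h, and this was not called against WT replicates 3 and 4 alone (0.07, FDR 0.327). At 2 and 4 h G3bp2 in WT was at 0.04 and 0.06, not called, and was called higher against replicates 1 and 2 alone (0.29 and 0.31) and lower against replicates 3 and 4 alone (-0.16 and -0.14). Usp10 was at -0.02 to 0.12 in WT, none called; with WT replicates 3 and 4 alone at 0 h it was higher at 2 and 4 h (0.15 and 0.22).

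The difference between groups in the change over 8 h was tested for each clone against WT, with the same WT libraries in both. For clone 2 minus WT, 0 of the 9 genes were called (edgeR; 3 at an unadjusted p under 0.05, 0 by DESeq2; 7.42% of all genes tested), with Ddx3x at -0.43 (FDR 0.0927), G3bp2 at -0.34 and Ubap2 at 0.26. Without WT replicate 3 or 4 at 0 h Ddx3x was called (-0.50 and -0.53), as was G3bp2 (-0.40 and -0.42), and without replicate 3 Ubap2 (0.32). With WT replicates 1 and 2 alone at 0 h 5 genes were called: Ddx3x (-0.70), G3bp2 (-0.58), Nufip2 (-0.44), Caprin1 (-0.23) and Ubap2 (0.40). Over all genes that setting called 4945, against 1176 with all WT libraries, so its 5 do not compare with 7.42%. For clone 4 minus WT, 2 were called (4.09%): Caprin1 (-0.41, SE 0.113, FDR 0.0365) and Ubap2l (-0.30, SE 0.0876, FDR 0.0448), with Ddx3x at -0.55 (FDR 0.0699) and Nufip2 at -0.42 (FDR 0.0928). With WT replicates 1 and 2 alone at 0 h Ddx3x (-0.83), Nufip2 (-0.65) and G3bp2 (-0.52) were called as well, and with replicates 3 and 4 alone Ddx3x (-0.33). Both settings also called more of all genes than the fit with all WT libraries did. Clone 4 has 1 library at 0 h, which is assumed to vary like the other groups. The Caprin1 call was lost without WT replicate 1 at 2 h (-0.38), WT replicate 1 or 3 at 8 h (-0.40 and -0.41) or either clone 4 library at 8 h (-0.38 and -0.44) and on library totals (-0.35). The Ubap2l call was lost in 20 of 30 omissions of a single library (-0.34 to -0.26), on library totals (-0.24) and without the filter (-0.31). Whether the groups differ in the change to 4 h was not tested.

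The RIP-seq lists hold gene symbols for the comparisons named "CNT vs RA" (2170 symbols) and "2I vs RA" (2502 symbols), with no value, direction or threshold, so presence is all that can be read. Caprin1, Ubap2, Ubap2l and Nufip2 were in both lists, 4 of 9 genes, where 7.47% of the genes tested at 0 h were. G3bp2 and Ddx3x were in the first only and G3bp1 and Usp10 in the second only, so each list held 6 of the 9 (12.1% and 13.9% of genes tested were present). Caprin2, the member with the lowest counts, was in neither. The RIP control carries the Caprin1 knockout genotype by its label and is 1 sample. Its part in the presence of Caprin1 itself, which is counted above, was not tested. The shares given for comparison are over all genes tested at 0 h, at any level. The part of expression level in presence was not tested. The lists share 1342 symbols, which is a part of each, and by their names the comparisons share the retinoic acid samples.

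Other genes of the granule, of P-bodies and of the eIF2 pathway were counted by lists, beside 45.2% of all genes called at 0 h in clone 2 and 15.9% in libraries labelled clone 4. Of 41 other stress granule genes, 5 were higher and 8 lower in clone 2 at 0 h (median -0.02) and 4 higher and 3 lower in libraries labelled clone 4 (median 0.12). Zc3hav1, an antiviral RNA-binding protein, was higher in both (1.84 and 1.24), while Cirbp, the cold-inducible RNA-binding protein, was lower in both (-0.85 and -0.80), as were Zfand1 (-0.56 and -0.55) and Hdac6, a tubulin deacetylase (-0.37 and -0.58). Of 15 P-body genes, 1 was higher and 2 lower in clone 2 and 1 and 1 in clone 4, with Patl1, a decapping activator, higher in both (0.41 and 0.42). Of 14 genes for eIF2 kinases and eIF2 phosphorylation, 6 were higher and 0 lower in clone 2 and 2 higher and 0 lower in clone 4, among them Eif2ak2, the kinase PKR (0.98 and 1.13), and Ddit3, the stress-induced factor CHOP (0.82 and 0.68). These shares of the eIF2 list are close to the background. Fmr1, which encodes the granule protein FMRP, was at 0.46 (FDR 0.0713) and 0.62 (FDR 0.103) at 0 h. The direction of the stress granule list in clone 2 varied with time, with 11 higher and 18 lower at 2 h (61.8% of all genes called), 16 and 12 at 4 h (61.9%) and 10 and 21 at 8 h (63.6%). In libraries labelled clone 4 it had 9 higher and 13 lower at 2 h (41.3%), 14 and 10 at 4 h (47.1%) and 11 and 11 at 8 h (37.5%).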

How the data were processed

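RNA-seq libraries were made with a stranded mRNA kit and sequenced on a NextSeq500, and RIP-seq libraries with a QuantSeq 3' kit, per the labels' protocols. The submitters' processing notes name STAR 2.4.0.1, TopHat, FastQC 0.11.9, DESeq2, Cufflinks and Cuffdiff, and GRCm38 and mm10, without saying which step used which. Neither the counting program nor its strand setting is given in the sources used here. The authors deposited raw counts per gene, in 1 table per time, and the RIP results as symbol lists without values. Of 51520 rows, 110 with repeated identifiers were dropped. Counts were tested with edgeR 4.0.16 (R 4.3.3, TMM, filterByExpr, robust quasi-likelihood F test, Benjamini-Hochberg FDR under 0.05 over all genes tested), within each time for clones and over 12 groups for time. The fits were also run on simulated counts. Libraries there were drawn independently, without the WT pairs, so that run cannot show how the pairs affect the calls. Printed CPM are TMM-scaled over all 31 libraries. SE is the log2 difference divided by the square root of F. Coordinates are RefSeq's for GRCm38.p6. DESeq2 1.42.0, other scalings, no filter, a replicate block and omission of each library were alternatives. The members and lists were chosen with earlier results of these data known. Besides the members, the text names the 3 nearest genes on each side of Caprin1 with a mean of at least 1 CPM, the 5 genes most like it (Pearson r of log2 CPM over 12 group means), and of each pathway list up to 4 genes called in both clones at 0 h. Fmr1 and Ddx3y are named as relatives. Replicate 1 of clone 4 at 0 h was not analysed here.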

Additional observations from a re-analysis of the deposited data

Results flagged for a closer look

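The difference between the clones passed the test (edgeR, FDR under 0.05) for 6 of the genes at 1 or more times, always as clone 4 minus clone 2 on the log2 scale. Of all genes tested, 58.4% were called between the clones at 8 h alone, and the share called at 1 or more times was not counted. Caprin1 differed by 3.34, 2.87, 2.67 and 3.05 at 0, 2, 4 and 8 h. G3bp1 differed by -0.39, -0.29, -0.35 and -0.31 at the same times. Caprin2 differed by -0.46, -0.47 and -0.41 at 2, 4 and 8 h. At 8 h G3bp2 differed by 0.12, Nufip2 by 0.22 and Ddx3x by 0.15. The G3bp2 difference was lost by DESeq2 (0.12, adjusted p = 0.0662), without the filter on low counts (0.09) and without WT replicate 2, 3 or 4, either clone 4 library or clone 2 replicate 1 (0.06 to 0.12). The Nufip2 difference was lost without clone 2 replicate 1 (0.14), and that of Ddx3x without clone 4 replicate 2 (0.12) or clone 2 replicate 1 (0.10) and without the filter (0.11).

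The change over 8 h in libraries labelled clone 4 differed from that in WT for Caprin1 (-0.41) and Ubap2l (-0.30), by the test of the difference itself. Among 36 tests of a gene in the 4 WT libraries of a time, 1 library stood apart: Ubap2l in WT replicate 3 at 0 h, at 429.6 CPM, below the other 3. Chance gives about 1 in 20 such groups.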

How the results depend on the processing

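For the 243 differences of single member genes, DESeq2 added 6 calls and ended 5, library totals added 16 and ended 20, no filter on low counts added 6 and ended 14, and omission of each library in turn added 40 and ended 128 over all omissions. With WT replicates 3 and 4 only at 0 h, chosen after seeing the data, G3bp2 in WT turned from 0.04 to -0.16 at 2 h and from 0.06 to -0.14 at 4 h; with replicates 1 and 2 only it was called at 0.29 and 0.31. That setting gave 12 genes called for the pooled clones at 0 h and 6652 for clone 4. With WT replicates 1 and 2 only, also chosen after seeing the data, the counts were 2445 and 7919, and 6679 for WT at 2 h, 4945 and 4974 for the differences in change (clones 2 and 4). DESeq2 called 3481 genes for clone 4 at 8 h (5395 by edgeR). Pooling the clones in the joint fit gave 1722, 5062 and 4442 for WT at 2, 4 and 8 h, and Caprin1 in WT at 8 h was then not called (0.35, adjusted p = 0.771).

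Replicate numbers gave little sign of pairing: deviations of same-numbered libraries of a time correlated at -0.0959 to 0.0494 (20 pairs), and those of a lineage at different times at -0.0438 to 0.214 (42 pairs, 3 over 0.1). Deviations within a group of 2 libraries mirror each other, so some of these pairs repeat the same value. Low values cannot show that pairing is absent. With the replicate block, edgeR called 0, 2, 0 and 0 genes for the pooled clones at 0, 2, 4 and 8 h (4803, 3317, 3791 and 1839 at an unadjusted p under 0.05), 7520 for clone 4 against WT and 6727 between the clones at 0 h, and it added 24 member calls and ended 12.

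With single libraries left out, pooled counts ran from 1734 to 7582, 2517 to 4792, 3069 to 5506 and 619 to 3589 at the 4 times. At 0 h they ran from 4869 to 7864 for clone 2, 1720 to 3258 for clone 4 and 2146 to 5169 between the clones. Over time they ran from 946 to 2441 and 2777 to 5265 for clone 2 at 2 and 8 h, and from 459 to 1494, 2305 to 4419 and 1971 to 3849 for clone 4. For the differences in change they ran from 564 to 1955 (clone 2) and 168 to 1718 (clone 4). Clone 4 has 1 library at 0 h, which is assumed to vary like the other groups.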
